A study of Homo sapiens with 6 samples.

Results

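The genes described here are 32 direct transcriptional targets of the tumour suppressor p53. They were chosen by name from the p53 literature, with earlier results of these data known. They were matched to the count table by Ensembl identifier through GENCODE 29. All 32 were found among the 20169 gene rows, and 31 passed the filter on low counts. They were read by polyA-selected RNA-seq in HEK293T, a line derived from human embryonic kidney that makes the large T antigen of a simian virus. The CAG group (3 libraries) held a landing pad, a genomic docking site for a reporter gene, driven by the CAG promoter, a strong composite of viral enhancer and actin promoter parts. The PGK group (3 libraries) held a landing pad driven by the promoter of the glycolytic gene PGK1. Each line is described as monoclonal, so promoter and clone cannot be told apart in any value below. The labels give the replicates no culture or passage of their own, and the p-values therefore rest on a spread that may be technical.

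p53 is a transcription factor that is kept low by the ubiquitin ligase MDM2 and is stabilised after DNA damage and other stresses. It then switches on genes that stop the cell cycle, repair DNA, reshape metabolism or start cell death, and it also switches on MDM2, its own inhibitor. Large T antigen binds p53 and blocks its activity as a transcription factor, so target genes in HEK293T cells are read in a setting where the protein is restrained.

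p53 binds DNA through a pair of 10-base half-sites. The half-site consensus was searched in RefSeq promoter windows (GRCh38.p14, 250 bases before to 50 after each transcript start), which held 26 of the 32 members. The consensus is its own reverse complement, so a search of 1 strand covers both. A half-site without mismatch was present for 6 of 26 members and for 2202 of all 27305 genes with a window, or 8.06%. Members with 2 adjoining half-sites and at most 2 mismatches outside the fixed core bases numbered 4 of 26, against 98 of 27305 genes, or 0.359%. Matches of both kinds follow, 5′ to 3′ on the strand of the gene and with the whole matched stretch in capitals. The capitals of MDM2, FAS and AEN each include 2 mismatched bases. The genes that carry these matches range from the lowest to the least changed of the members. The adjoining match of DDB2, with 1 mismatch, is not printed. For DDB2 the capitals cover 2 half-sites without mismatch and the single base between them. This arrangement, with a spacer of up to 13 bases, was found in 1 of 26 members and in 10 of 27305 genes, or 0.0366%.
MDM2: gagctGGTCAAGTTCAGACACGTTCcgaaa
FAS: ctcctGGACAAGCCCTGACAAGCCAagcca
DDB2: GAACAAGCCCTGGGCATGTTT
AEN: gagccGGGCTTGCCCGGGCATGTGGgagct
PLK2: ggacaAGACTTGCTTcccgg
FDXR: ggagcGGGCTTGCCCtgcgg
SESN1: cgtctGGACAAGTCTccaca

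The MDM2 match lies at chr12:68808923-68808942 on the plus strand and begins 94 bases before an internal start of the gene. The FAS match lies at chr10:88991309-88991328 on the plus strand, 122 bases before one of its annotated starts. The DDB2 match, at chr11:47214979-47214999 on the plus strand, begins at base 6 of the transcribed region of one start. The AEN match is at chr15:88621306-88621325 on the plus strand, and those of PLK2, FDXR and SESN1 are single half-sites on the minus strand at chr5:58460209-58460218, chr17:74872996-74873005 and chr6:109009028-109009037. The core letters CATG alone were present for 10 of 26 members and for 60.6% of all genes with a window. A match describes letters in these windows and is not evidence of binding. The members were chosen as direct p53 targets, so their share with a p53 motif is no test of the list. Regulatory sites of several members lie outside such windows.

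Total counts were 22450538 to 23442542 in CAG and 21896246 to 22889708 in PGK. Mitochondrially encoded mRNAs took 2.63 to 2.98% of counts in CAG and 2.62 to 3.08% in PGK. Of the 8 markers listed for HEK293 cells 7 were matched, with a summed level of 846 to 888 CPM in CAG and 642 to 655 CPM in PGK. These markers went both ways. The neurofilament gene NEFM was at 0.0853 ± 0.0729 CPM in CAG and 18.8 ± 1.23 CPM in PGK, while the intermediate filament gene INA was at 45.8 ± 0.446 CPM in CAG and 10.5 ± 0.549 CPM in PGK (SD, n = 3 each). The keratin gene KRT8 was at 5.35 ± 0.427 CPM in CAG and 1.09 ± 0.348 CPM in PGK, and the vimentin gene VIM at 631 ± 12.2 CPM in CAG and 455 ± 3.14 CPM in PGK (SD, n = 3 each). Markers of hepatocytes summed to at most 0.0887 CPM in CAG and 0.186 CPM in PGK, and those of endothelium to at most 0.127 CPM in CAG and 0.0876 CPM in PGK. Markers of blood and immune cells summed to at most 2.04 CPM in CAG and 1.80 CPM in PGK, and those of muscle to at most 0.713 CPM in CAG and 0.233 CPM in PGK. CD3E, HBB and ALB had 0 counts in all libraries.

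The p53 targets were mostly lower in the CAG line. With edgeR's quasi-likelihood test and Benjamini-Hochberg adjustment over all 13103 genes tested, 23 of the 31 tested members fell and 3 rose, while 5 did not pass an adjusted p of 0.05. Among all tested genes, 30.4% were lower and 31.6% higher by the same rule. The median log2 fold change of the tested members was -0.33, CAG over PGK, against -0.00211 for all tested genes. The 3 CAG and the 3 PGK libraries did not overlap for 27 of the 31, with CAG below PGK for 23 and above it for 4, where 65.5% of tested genes had no overlap. Of the lower members 7 were at least 2-fold lower, against 2.88% of tested genes. These counts include GDF15, which reached the low-count filter only through its PGK libraries, where it is high. Over the 30 members that reached the filter in both lines, 22 were lower and 6 at least 2-fold lower, and of all genes that did so 31.2% were lower and 2.21% at least 2-fold lower. Set against a minimum fold of 1.5 with edgeR's glmTreat, 8 members were lower (CDKN1A, PLK2, PHLDA3, ZMAT3, EDA2R, FAS, FDXR and DDB2), where 4.26% of tested genes were, and 0 were higher, where 7.28% were. With no adjustment at p under 0.05, glmTreat gave 9 lower and 0 higher members. The summed level of the 32 members was 1225 ± 5.83 CPM in CAG and 1473 ± 18.7 CPM in PGK (SD, n = 3 each), a ratio of 0.832. In bulk RNA, fewer cells that express a gene and less RNA per cell cannot be told apart.

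**Figure D1:**
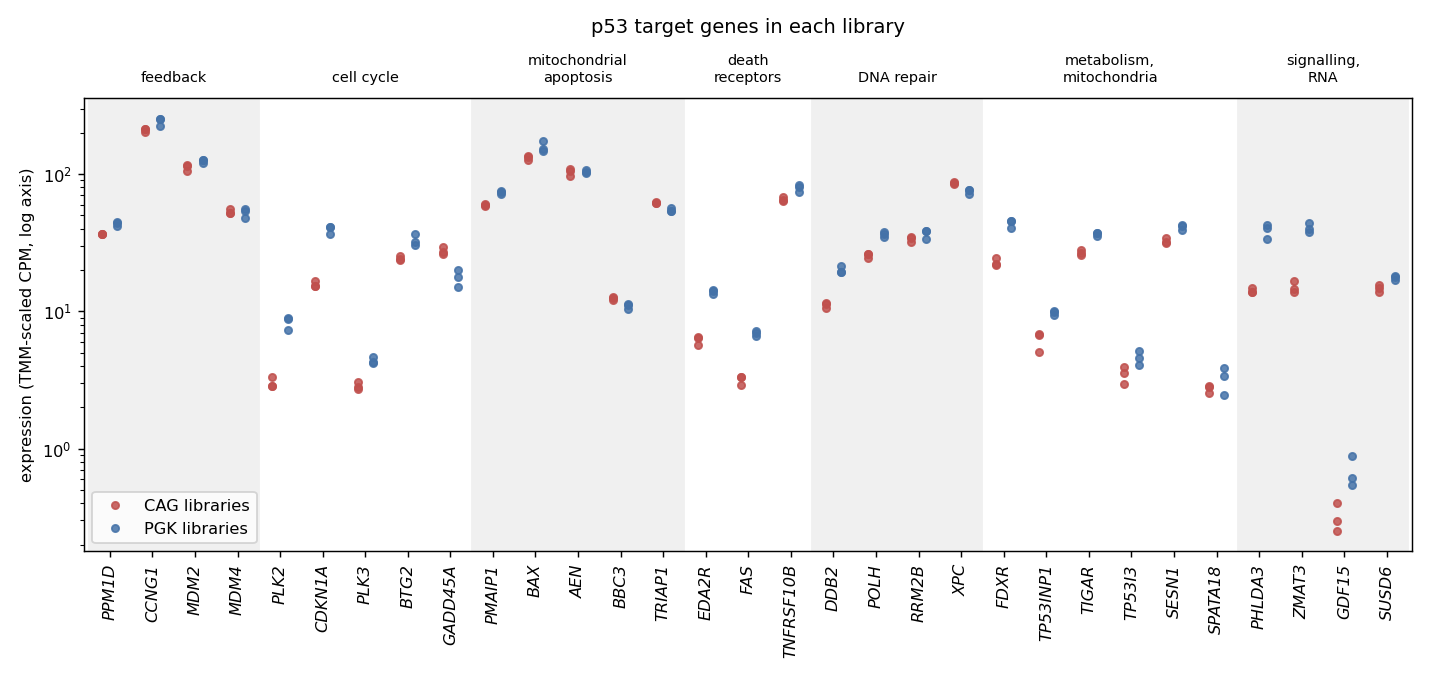
Expression of the 31 tested p53 targets in each library, as TMM-scaled CPM on a log axis, with the 3 CAG libraries left of the 3 PGK libraries for each gene and genes grouped by role. The CAG points lie below all PGK points for 23 genes, with the widest gaps for PLK2, PHLDA3, ZMAT3 and CDKN1A, and above them for GADD45A, XPC, TRIAP1 and BBC3.

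The 4 genes that feed back on p53 changed little. MDM2, which ubiquitinates p53, had 105, 116 and 114 CPM in the CAG libraries, against 127, 126 and 121 CPM in the PGK libraries. The groups did not overlap, and the log2 fold change was -0.16 (SE 0.05, adjusted p 0.0125 in edgeR's quasi-likelihood test). Without CAG replicate 1, its lowest library, the adjusted p of MDM2 was 0.0718, and the alternatives gave 9.96e-04 to 0.0718, leaving aside, here and for the genes that follow, the minimum-fold test. MDM4, the MDM2 relative that binds p53 and blocks its activation domain, was at 52.1, 55.2 and 52.1 CPM in CAG and 55.2, 47.7 and 54.1 CPM in PGK. Its groups overlapped, and its log2 fold change of 0.02 (SE 0.06) did not pass, with an adjusted p of 0.775. PPM1D, the phosphatase that removes activating phosphates from p53 and its kinases, changed by -0.25 (SE 0.06) on the log2 scale, and CCNG1, the cyclin G1 that directs a phosphatase to MDM2, by -0.21 (SE 0.05). Both fell, with adjusted p of 9.4e-04 for PPM1D and 0.00136 for CCNG1 by edgeR.

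Cell cycle inhibitors and stress kinases held some of the lowest values. CDKN1A, which encodes the cyclin-dependent kinase inhibitor p21, had 16.8, 15.3 and 15.3 CPM in CAG, against 41.4, 40.9 and 36.8 CPM in PGK. Every CAG library was well below every PGK library, and the log2 fold change was -1.33 (SE 0.07, adjusted p 2.1e-11 by edgeR). PLK2, a polo-like kinase induced by stress, whose promoter holds one of the half-sites shown above, had 2.84, 3.30 and 2.85 CPM in CAG and 8.76, 8.99 and 7.32 CPM in PGK. Its log2 fold change of -1.47 (SE 0.13, adjusted p 9.9e-09) was the lowest of all members. Its relative PLK3 was at 2.79, 2.71 and 3.06 CPM in CAG and 4.61, 4.18 and 4.29 CPM in PGK, and fell by 0.61 (SE 0.14) on the log2 scale. BTG2, which restrains proliferation and recruits mRNA deadenylases, fell by 0.43 (SE 0.07).
GADD45A, a small protein that binds cell cycle and stress kinase partners, went the other way. It had 29.5, 26.3 and 27.2 CPM in CAG, against 20.2, 14.9 and 17.9 CPM in PGK. All CAG libraries lay above all PGK libraries, and it rose by 0.65 (SE 0.09, adjusted p 6.4e-06 by edgeR). The 50 tested genes nearest to GADD45A on chromosome 1 had a median log2 fold change of 0.65 as well.

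Genes of the mitochondrial death pathway moved by small amounts in both directions. AEN, described last, is an apoptosis gene that is only grouped with them, here and in the figures. BAX, which forms pores in the outer mitochondrial membrane, had 136, 127 and 132 CPM in CAG and 174, 147 and 153 CPM in PGK. Its groups did not overlap, and it fell by 0.26 (SE 0.06, adjusted p 7.2e-04 by edgeR). PMAIP1, which encodes the BH3-only protein NOXA, was at 58.3, 59.4 and 60.5 CPM in CAG and 73.5, 75.7 and 72.1 CPM in PGK and fell by 0.31 (SE 0.05). BBC3, which encodes the BH3-only protein PUMA, had 12.7, 12.0 and 12.5 CPM in CAG, against 11.4, 11.2 and 10.4 CPM in PGK. The CAG libraries were all above the PGK libraries, but its log2 fold change of 0.17 (SE 0.08) did not pass, with an adjusted p of 0.0725. With library size as the only scaling the adjusted p of BBC3 was 0.0350, and the alternatives spanned 0.0350 to 0.223. TRIAP1, an inhibitor of apoptosis at mitochondria, rose by 0.18 (SE 0.05, adjusted p 0.00509), with 62.0, 61.7 and 62.8 CPM in CAG and 54.0, 53.6 and 56.9 CPM in PGK. AEN, a nuclease that promotes apoptosis and whose promoter holds 2 adjoining half-sites, had 109, 105 and 96.2 CPM in CAG and 107, 104 and 101 CPM in PGK. Its groups overlapped, with an adjusted p of 0.908 and a log2 fold change of -0.00801 (SE 0.05).

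Death receptors at the cell surface were lower where they were detected. FAS, the receptor for FAS ligand, had 2.93, 3.30 and 3.31 CPM in CAG, against 6.89, 7.15 and 6.57 CPM in PGK. It fell by 1.11 (SE 0.12, adjusted p 2.2e-07 by edgeR), with no overlap between lines. FAS shares 380 bases of exon, 8.93% of its exon length, with ACTA2 on the opposite strand. ACTA2, a smooth muscle actin, also fell, by 2.19 (SE 0.16). Since no source used here states the strand setting of the counting, reads of this pair cannot be assigned with certainty. EDA2R, a receptor for ectodysplasin A2 on the X chromosome, was at 6.34, 5.72 and 6.46 CPM in CAG and 14.2, 14.3 and 13.3 CPM in PGK. It fell by 1.17 (SE 0.09, adjusted p 2.6e-09), while its 50 neighbouring tested genes had a median of 0.21. The TRAIL receptor gene TNFRSF10B, at 68.3, 64.1 and 64.9 CPM in CAG and 81.1, 83.1 and 73.7 CPM in PGK, fell by 0.27 (SE 0.06). The other TRAIL receptor gene among the members, TNFRSF10A, had 0 counts in all 6 libraries. A floor of 3 counts corresponds to 0.126 to 0.133 CPM in CAG and 0.131 to 0.140 CPM in PGK, and TNFRSF10A was not tested.

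Among DNA repair genes the change differed from gene to gene. DDB2, which recognises ultraviolet damage in DNA, had 10.6, 11.4 and 11.2 CPM in CAG, against 21.3, 19.3 and 19.4 CPM in PGK. With the libraries fully apart, it fell by 0.85 (SE 0.08, adjusted p 2.1e-08 by edgeR). POLH, the polymerase that copies past ultraviolet lesions, was at 26.0, 26.1 and 24.6 CPM in CAG and 36.7, 37.9 and 34.8 CPM in PGK, and fell by 0.51 (SE 0.06). XPC, which acts beside DDB2 in recognising damage for nucleotide excision repair, rose by 0.20 (SE 0.05, adjusted p 0.00203), with 86.7, 87.8 and 85.2 CPM in CAG and 76.9, 71.6 and 76.9 CPM in PGK. XPC shares 23.8% of its exon length with an antisense gene and 6.63% with LSM3 on the opposite strand, so its level is uncertain. LSM3 also rose, by 0.18 (SE 0.06). RRM2B, the p53-induced subunit of ribonucleotide reductase, had 31.9, 35.0 and 34.0 CPM in CAG and 33.6, 38.6 and 38.6 CPM in PGK. These ranges overlapped, and its log2 fold change of -0.14 (SE 0.07) did not pass, with an adjusted p of 0.0904. Leaving out PGK replicate 1, the lowest PGK library, gave RRM2B an adjusted p of 0.0115, and the alternatives spanned 0.0115 to 0.261.

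Of 6 metabolic and mitochondrial targets 5 fell past the threshold, which 30.4% of all tested genes also did, and SPATA18 did not pass. FDXR, the mitochondrial ferredoxin reductase, had 21.8, 22.1 and 24.4 CPM in CAG, against 45.4, 40.5 and 45.6 CPM in PGK. It fell by 0.94 (SE 0.07, adjusted p 1.2e-09 by edgeR). TIGAR, which lowers fructose-2,6-bisphosphate and so glycolytic flux, was at 28.1, 25.8 and 26.8 CPM in CAG and 37.2, 37.2 and 35.1 CPM in PGK, and fell by 0.44 (SE 0.06). TIGAR shares 42.6% of its exon length with a gene on the same strand that GENCODE 29 annotates and the count table does not list. SESN1, a sestrin that restrains mTORC1 signalling, fell by 0.33 (SE 0.06). TP53INP1, which acts in autophagy and cell death, had 5.01, 6.78 and 6.67 CPM in CAG and 9.97, 9.98 and 9.46 CPM in PGK, and fell by 0.67 (SE 0.11). TP53I3, a quinone oxidoreductase, was low, at 3.90, 2.97 and 3.52 CPM in CAG and 5.12, 4.05 and 4.6 CPM in PGK. The 2 ranges lay close together, and it fell by 0.41 (SE 0.14) with an adjusted p of 0.0202. The TP53I3 call was lost with DESeq2 (adjusted p 0.0516), without CAG replicate 2 (0.103) and without PGK replicate 1 (0.0817), with 0.00934 to 0.103 across the alternatives. SPATA18, which takes part in clearing damaged mitochondria, had 2.53, 2.84 and 2.81 CPM in CAG and 2.47, 3.87 and 3.37 CPM in PGK, with overlapping libraries. Its log2 fold change of -0.25 (SE 0.17) did not pass, with an adjusted p of 0.213, and 0.0380 without PGK replicate 1, with 0.0380 to 0.630 across the alternatives.

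The remaining signalling and RNA-binding targets were all lower. PHLDA3, which competes with AKT for membrane lipids, had 14.9, 13.8 and 13.8 CPM in CAG, against 42.5, 33.5 and 40.3 CPM in PGK. It fell by 1.45 (SE 0.09, adjusted p 1.1e-10 by edgeR), and 19.1% of its exon length is shared with a noncoding gene on the same strand. ZMAT3, a zinc finger protein that binds RNA and regulates splicing, was at 13.9, 16.7 and 14.4 CPM in CAG and 38.1, 43.8 and 39.9 CPM in PGK. It fell by 1.43 (SE 0.08, adjusted p 3.0e-11), close to PHLDA3. SUSD6, a membrane protein with a sushi domain, fell by 0.25 (SE 0.07). GDF15, a secreted growth factor of the TGF-beta superfamily, was near the detection limit, with 9, 7 and 6 counts in CAG and 19, 12 and 14 counts in PGK. Its log2 fold change was -1.09 (SE 0.36, adjusted p 0.0132), but it passed the low-count filter through its PGK libraries only. The GDF15 call was lost with DESeq2 (adjusted p 0.0592), without CAG replicate 3 (0.0577) and without PGK replicate 1 (0.0757), with 0.0113 to 0.0757 across the alternatives. The other 30 tested members reached the filter in both lines.

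Levels per length spanned a wide range in both lines. Expressed as CPM per kilobase of exon, tested members ran from 0.151 for GDF15 to 67.7 for CCNG1 in CAG, with a median of 6.06, and from 0.325 to 78.4 for the same genes in PGK, with a median of 8.54. CCNG1, BAX, TRIAP1 and PMAIP1 were the 4 highest in each line. On this scale TRIAP1 was at 43.1 ± 0.398 in CAG and 38.0 ± 1.24 in PGK, and PMAIP1 at 26.6 ± 0.487 in CAG and 33.0 ± 0.824 in PGK (SD, n = 3 each). CDKN1A was at 5.18 ± 0.272 in CAG, below MDM2 at 8.42 ± 0.428, and at 13 ± 0.831 in PGK, above MDM2 at 9.39 ± 0.225 (SD, n = 3 each).
Among the members, the size of the difference varied with level. The 9 members with a mean of at least 50 CPM had log2 fold changes from -0.31 to 0.20, and the 15 members from 10 to under 50 CPM spanned -1.45 to 0.65. The 7 members under 10 CPM spanned -1.47 to -0.25. The class medians were -0.16, -0.44 and -0.67, from the highest level to the lowest. These level classes were drawn after the values were seen. All tested genes were not split by level, so whether the pattern is particular to the members was not tested. Replicates of a line agreed closely, with a median coefficient of variation over tested members of 5.02% in CAG and 5.67% in PGK, and a highest value of 23.9% in CAG and 26.8% in PGK, both for GDF15.

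**Figure D2:**
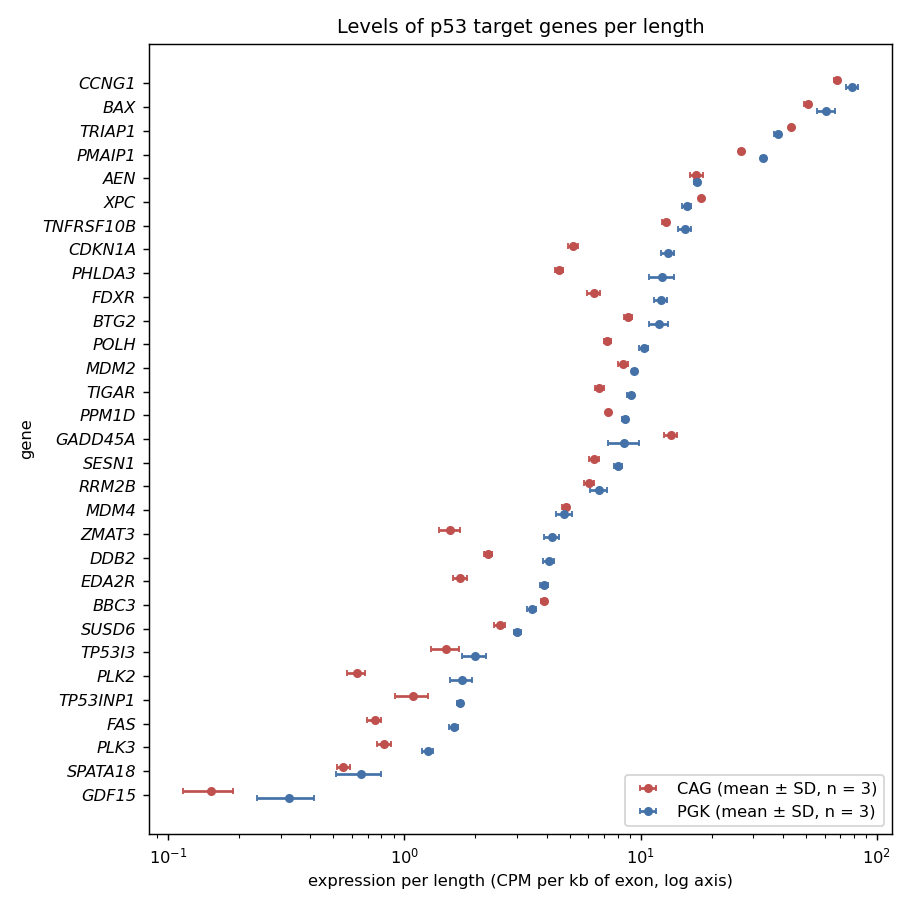
Expression per length of the 31 tested members in CPM per kilobase of exon (log axis), mean and SD of 3 libraries, with CAG drawn above PGK for each gene and genes ordered by their PGK level. CCNG1 is highest at 67.7 in CAG and 78.4 in PGK, GDF15 is lowest, and CDKN1A, PHLDA3 and ZMAT3 stand well to the left in CAG.

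Most members also lay below the genes around them on the chromosome. Each member was set beside the median log2 fold change of its 50 nearest tested genes on the same chromosome. Of 31 tested members 29 lay below that median, where 50.2% of tested genes did, and the exceptions were MDM4 and CCNG1. For CCNG1 the neighbours had a median of -0.44, lower than its own -0.21. The median neighbourhood value was -0.04 for members, and the median member lay 0.41 below its neighbourhood on the log2 scale. The 3 members that rose all had raised neighbours, with medians of 0.65 for GADD45A, 0.41 for TRIAP1 and 0.36 for XPC, so each lay at or below its surroundings. BAX, which fell, lay in a neighbourhood at 0.38, and BBC3, AEN and SPATA18, which did not pass, lay in neighbourhoods at 0.50, 0.42 and 0.34. ZMAT3, CDKN1A and GDF15 had lower neighbourhoods, at -0.27, -0.30 and -0.55.

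**Figure D3:**
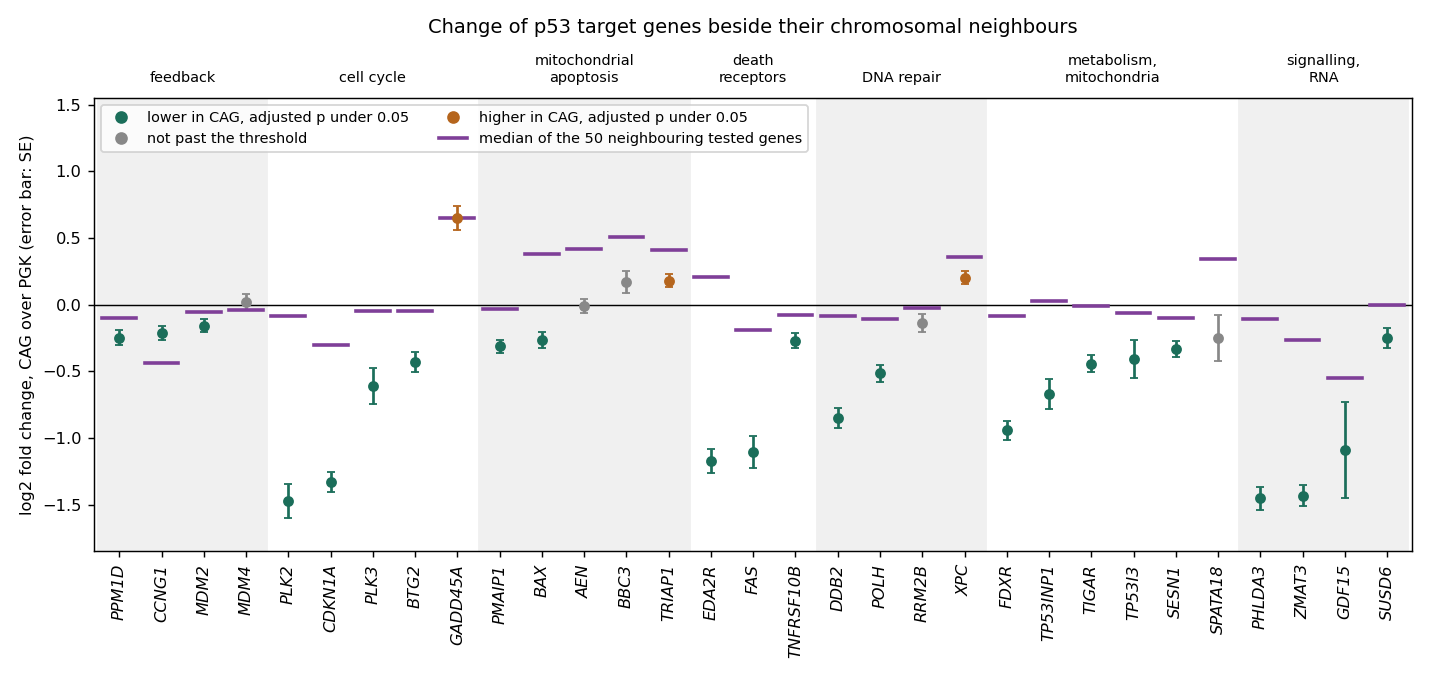
Log2 fold change (CAG over PGK) of each tested member with its standard error, coloured by whether the adjusted p passed 0.05, beside a bar at the median of its 50 neighbouring tested genes. Points lie below the bar for 29 of 31 genes, and the 3 orange points are GADD45A, TRIAP1 and XPC.

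Ratios of one target to another within a library restate the changes above for pairs of genes. CDKN1A over MDM2, as a ratio of CPM, was 0.159, 0.132 and 0.134 in CAG, against 0.326, 0.325 and 0.303 in PGK, a log2 difference of -1.17. Every CAG ratio was below every PGK ratio. CDKN1A over GADD45A was 0.568, 0.583 and 0.563 in CAG and 2.05, 2.74 and 2.05 in PGK, a log2 difference of -1.99. PLK2 over PLK3 was 1.02, 1.22 and 0.932 in CAG and 1.90, 2.15 and 1.70 in PGK, a log2 difference of -0.86. MDM2 over MDM4 was 2.02, 2.10 and 2.19 in CAG and 2.30, 2.64 and 2.24 in PGK, a log2 difference of -0.18. For each of the 4 ratios computed, the two-sided exact permutation test gave 0.1, the smallest p that 3 libraries against 3 allow, so none can pass 0.05.

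Genes that act on p53 or are related to it moved in both directions. Of 32 tested genes of the p53 family and its regulators 10 rose and 12 fell in edgeR's test, with a median of 0.03, near the 31.6% and 30.4% of all tested genes. TP73, a p53 relative, was at 12.5 ± 0.288 CPM in CAG and 17.3 ± 0.892 CPM in PGK (SD, n = 3 each) and fell by 0.47 (SE 0.08), in a neighbourhood at -0.60. TP63, another relative, had no more than 3 counts in any library and was not tested. Among the regulators that fell most, RPL11, a ribosomal protein that binds MDM2 and so spares p53, fell by 0.95 (SE 0.06). NPM1, the nucleolar protein nucleophosmin, fell by 0.50 (SE 0.05). Their neighbours had medians of -0.56 and -0.42. Both genes have processed pseudogenes, and the labels do not state how reads matching several places were counted, so their values are less certain. PPP1R13L, an inhibitor of p53 of the ASPP family, rose by 0.66 (SE 0.09). The lysine methyltransferases KMT5A and SETD7, which both modify p53, rose by 0.61 (SE 0.05) and 0.57 (SE 0.06). Neighbours of PPP1R13L, KMT5A and SETD7 were raised too, with medians of 0.51, 0.38 and 0.39.

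A further list of p53 targets held genes that moved in both directions. Of 61 tested genes on that list 23 fell and 14 rose, with a median log2 fold change of -0.11. That is 37.7% lower and 23.0% higher, where all tested genes had 30.4% and 31.6%. Over the 60 that reached the low-count filter in both lines, 23 fell and 13 rose, or 38.3% and 21.7%. All genes that did so had 31.2% lower and 30.7% higher. The receptor kinase EPHA2 was at 10.3 ± 0.608 CPM in CAG and 25.7 ± 0.944 CPM in PGK (SD, n = 3 each) and fell by 1.32 (SE 0.08, adjusted p 4.8e-11 by edgeR), in a neighbourhood at -0.61. EPS8L2, a relative of the actin regulator EPS8, fell by 1.35 (SE 0.25) at a low level, and the immediate early gene IER5 fell by 0.80 (SE 0.07). In the other direction, SYTL1, a synaptotagmin-like protein of vesicle traffic, rose by 1.35 (SE 0.34) at 0.931 ± 0.309 CPM in CAG and 0.361 ± 0.0412 CPM in PGK (SD, n = 3 each). SYTL1 had 23, 28 and 14 counts in CAG and 8, 7 and 9 counts in PGK, and reached the low-count filter only through its CAG libraries, where it is high. PLTP, the phospholipid transfer protein, rose by 0.99 (SE 0.07) among neighbours at -0.38, and TRIM38, a ubiquitin ligase of innate immunity, rose by 0.94 (SE 0.12). Whether this list differs from the members was not tested.

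Genes that p53 represses through p21 and the DREAM complex, which silences cell cycle genes, went both ways. Of 40 tested, 17 fell and 9 rose, with a median log2 fold change of -0.09. That is 42.5% lower and 22.5% higher, where all tested genes had 30.4% and 31.6%. With library size as the only scaling, 13 were lower and 12 higher. KIF20A, a mitotic kinesin, fell by 0.56 (SE 0.05), MKI67, the proliferation marker Ki-67, by 0.55 (SE 0.11), and MYBL2, a transcription factor of late cell cycle genes, by 0.48 (SE 0.05). PRC1, which bundles spindle microtubules, rose by 0.72 (SE 0.04) to 348 ± 9.57 CPM in CAG, against 212 ± 3.35 CPM in PGK (SD, n = 3 each). PLK4, the kinase of centriole duplication, rose by 0.60 (SE 0.06) and the cyclin gene CCNA2 by 0.46 (SE 0.05). Neighbours of PRC1, PLK4 and CCNA2 were raised too, with medians of 0.41, 0.39 and 0.39.

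**Figure D4:**
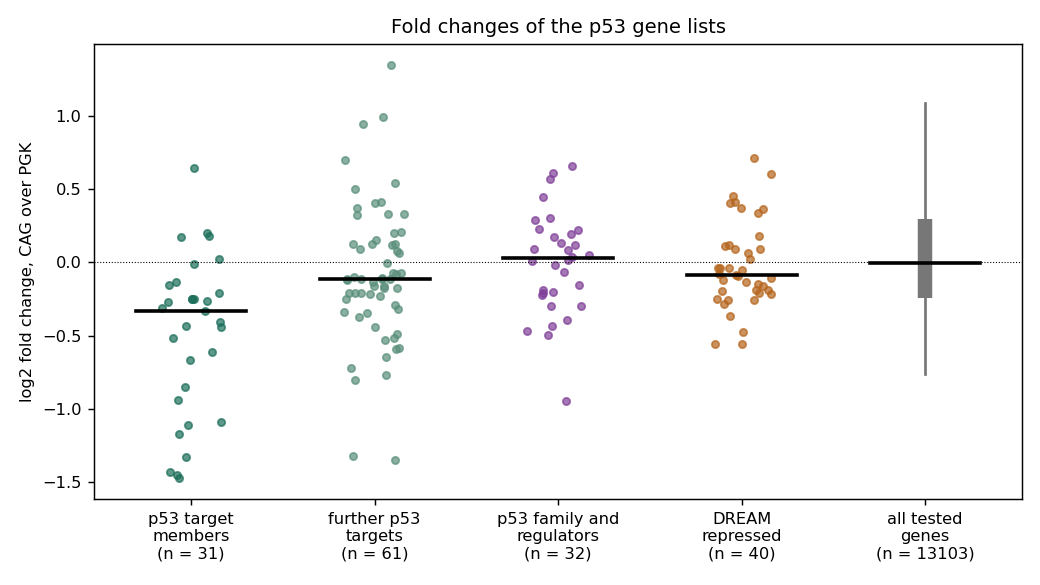
Log2 fold changes (CAG over PGK) of the tested genes of 4 lists, 1 point a gene with a black line at the median, beside all 13103 tested genes drawn as their median, quartiles (thick bar) and central 90 percent (thin line). The medians are -0.33 for members, -0.11 for further targets, 0.03 for regulators and -0.09 for DREAM-repressed genes.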

How the data were processed

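The authors deposited whole-number read counts per Ensembl gene for 6 libraries, not normalized and not pooled. The submitters' processing notes list HISAT2 2.2.1, Bowtie2 2.5.1, featureCounts 2.0.3, cutadapt 4.6 and the genome hg19. What each tool did, the annotation, the strand setting and the treatment of multi-mapping reads are not stated there. Symbols, gene order, exon lengths and overlaps came from GENCODE 29, built on GRCh38, which named 19346 rows and left 823 without a symbol, and 0 columns were left over. Exons of 13 members overlap another annotated gene. Genes were filtered with filterByExpr, scaled by TMM and tested with edgeR 4.0.16 (quasi-likelihood, robust, two-sided, R 4.3.3) with Benjamini-Hochberg adjustment over 13103 genes, at an adjusted p of 0.05. Log2 fold changes set CAG over PGK, and their SE was derived from the F statistic. CPM use TMM-scaled library sizes. Promoter sequences are from RefSeq. Alternatives were other filters, RLE or library size scaling, DESeq2 1.42.0, limma-voom (limma 3.58.1), a minimum fold of 1.5, a replicate block and leaving out each library. Floors cover counting error only. The members, lists and rules were chosen with earlier results of these data known. All 32 members were named, and of each other list the up to 3 called genes with the largest change in each direction; 1 further gene is not reported here. Of the listed genes DUSP14, NEFL and PECAM1 were not matched.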

Additional observations from a re-analysis of the deposited data

How the results depend on the processing

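Member counts held under other filters, scalings and tools. Of the 23 members that fell, 21 to 23 were also called lower under each alternative other than the fold test, and the same 3 rose in every one of them. Leaving out each library in turn gave 22 to 23 lower members, with GDF15 and TP53I3 replaced by RRM2B and SPATA18 without PGK replicate 1. At a minimum fold of 1.5 in edgeR's glmTreat, 8 members were lower and 0 higher, and over all tested genes 558 were lower and 954 higher. That test gave the regulators 1 lower and 0 higher, the further targets 3 lower and 3 higher, and the DREAM-repressed genes 0 lower and 1 higher. The higher further targets include SYTL1 (adjusted p 0.0476 by glmTreat), which reached the low-count filter only through its CAG libraries. At an unadjusted p under 0.05 it gave 0 higher members, 0 higher regulators and 0 lower DREAM-repressed genes, where DESeq2 without a minimum fold called 3 higher members. A minimum fold calls fewer genes by construction. The median log2 fold change of members was -0.33, and -0.41 once neighbourhood medians were subtracted, farther from 0. With the replicate block, 24 members were lower, RRM2B being added with an adjusted p of 0.0326. Same-numbered libraries had correlations of deviations of 0.108, 0.103 and 0.0131, above the -0.111 to 0.00988 of differently numbered ones. Whether the numbers mark pairs is not known, and the main test did not pair them. Over all tested genes the block gave 4461 higher and 4400 lower, against 4139 and 3986 without it. The block changed no other member's call. Low counts limit what can be said of GDF15. TP53I3 and SPATA18 were also low, and their calls changed under 1 or more alternatives and are uncertain. PLK2, PLK3 and FAS had similar counts in CAG, and their calls did not change, leaving aside the minimum-fold test.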
